A study of Homo sapiens with 6 samples.

Results

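The genes described here are ligands, receptors and regulators of Wnt signalling, 51 genes chosen by name. The arrays are of MDA-MB-231, a human breast cancer line in wide laboratory use. A probe set of the array was used for a gene where the platform annotation gave that gene's symbol alone. This rule found 134 probe sets for 47 of the 51 genes, out of 54613 probe sets and 19775 genes in all. No probe set passed it for WNT3, FZD8, TCF7 and PORCN, which were not analysed here. Of the 47 measured genes, 34 had more than 1 probe set and 13 had 1.

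The cells carried either a plasmid for expression of HS3ST2, an enzyme that adds 3-O-sulfate groups to heparan sulfate, or the control vector, with 3 arrays for each. All 6 arrays came from the same parental line. The labels give neither the time after transfection nor any selection or cloning, and do not say whether the replicates were separate transfections, so p-values measure only the spread between these arrays, which may be technical. In the deposited log2 table, 0 stands for the median of the 6 arrays in every probe set. Levels of different genes therefore cannot be compared, and whether a probe set lies near background cannot be read from them.

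Wnt proteins are secreted lipid-modified ligands that bind Frizzled receptors at the cell surface. With the co-receptors LRP5 or LRP6 they restrain a cytoplasmic complex of axin, APC and GSK3 kinases that marks beta-catenin for destruction, and the beta-catenin that is spared acts with TCF and LEF factors on target genes. With ROR receptors and ligands such as WNT5A they act on cell shape and movement without beta-catenin. Heparan sulfate on the cell surface is known to bind Wnt ligands, and MDA-MB-231 cells are of the basal, mesenchymal type of breast cancer line.

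The arrays showed a broad difference between the groups, which the Wnt genes have to be read against. By limma over genes, with a call at a Benjamini-Hochberg adjusted p under 0.05, 24.5% of all genes were called. Higher calls in the HS3ST2-labelled arrays made up 11.5% of genes and lower calls 13.0%. Any 2 arrays of 1 group differed by a median of 0.1 to 0.122 log2 in absolute value over probe sets, and any 2 of different groups by 0.16 to 0.193. The single HS3ST2 probe set differed by 0.11 ± 0.10 log2 (SE, n = 3 per group, limma adjusted p 0.523), and the labels do not say whether it matches the plasmid's transcript. The arrays are therefore called HS3ST2-labelled, and every direction rests on the labels. Ribosomal RNA control probe sets had a median of -0.29 to -0.06 in control arrays and 0.02, 0.16 and 0.74 in HS3ST2-labelled replicates 1, 2 and 3 (p = 0.1 by a two-sided exact permutation test, which cannot go lower with 3 arrays a group). Their part in the results was not tested, but values without the array at 0.74 are given below. Since levels are gone, markers cannot check the cell type. Of 5 measured leukocyte markers, ITGB2 and LCP1 were called higher and PTPRC, CD3E and LYZ were not called, and the summed log2 value of the 5 was -1.12 to -0.69 in control arrays and 0.69 to 1.12 in HS3ST2-labelled arrays. Of 5 fibroblast and 5 luminal epithelial markers, 0 were called, with summed values of -0.12 to 0.53 and -0.20 to 0.004 in control arrays and -0.23 to 0.18 and 0.17 to 0.28 in HS3ST2-labelled arrays. Of 4 markers of mesenchymal lines, CD44 (-0.59) and VIM (-0.20) were called lower, and AXL (0.15) and SNAI2 (0.07) were not called. Their summed value was 0.13 to 0.36 in control arrays and -0.34 to -0.29 in HS3ST2-labelled arrays. The part of these cell types in the results was not tested.

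Among the Wnt genes, 11 of 47 were higher in the HS3ST2-labelled arrays, 6 were lower and 30 did not pass the test. These 17 called genes are 36.2% of the measured ones, against 24.5% of all genes, and the median difference was 0.02 log2 for the Wnt genes and 0.01 log2 for all genes. The share called differed between Wnt genes with several probe sets and those with a single one, a difference that was not tested. With several probe sets, 15 of 34 Wnt genes were called (44.1%, against 26.5% of all such genes), and with a single probe set 2 of 13 were called (15.4%, against 22.2%). On single probe sets, 27 of 134 were called (20.1%), against 16.9% of all probe sets. Higher calls numbered 17 (7.90% of all probe sets were called higher) and lower calls 10 (8.98%). Most changes were small. Only 4 of the 17 called genes reached 0.5 log2 in size, namely LRP6 and ROR1, which rose, and APCDD1L and WNT7B, which fell. Between the 6 arrays the call was kept for 10 of the 17 genes whichever array was left out. The other 7 lost it without at least 1 array. Without HS3ST2 replicate 3, where the ribosomal RNA signal was highest, 11 of 47 Wnt genes were called, 6 higher and 5 lower. In that fit 3805 of all 19775 genes were called, against 4845 with all 6 arrays. The count of Wnt genes was also 11 when control replicate 2 or 3 or HS3ST2 replicate 2 was left out. Of all genes, 3779, 3977 and 3777 were called in these fits.

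**Figure D1:**
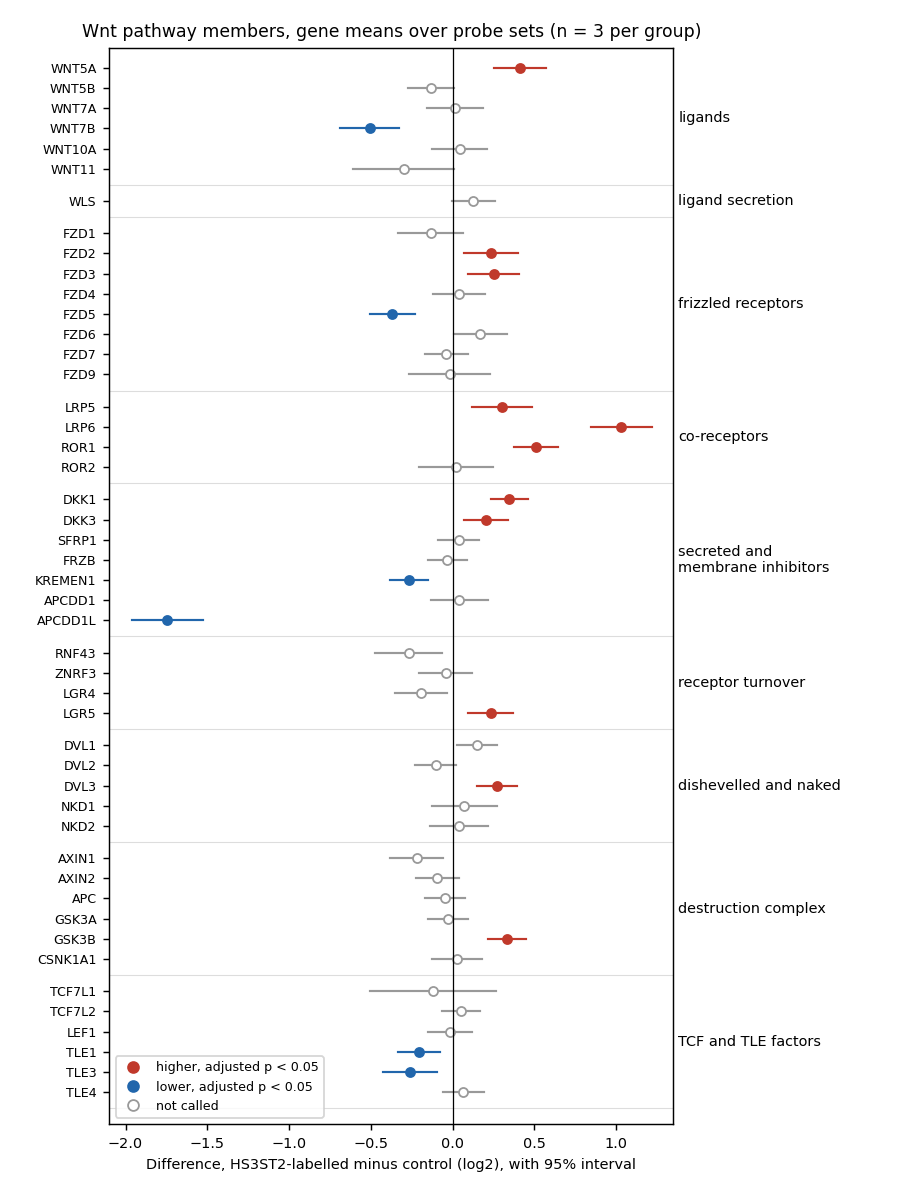
Difference between HS3ST2-labelled and control arrays (log2, x axis) for the 47 measured Wnt genes, grouped by role, as points with 95% intervals from limma (n = 3 per group). Filled red points were called higher and filled blue points lower at an adjusted p under 0.05, and open points were not called. APCDD1L at -1.75 and LRP6 at 1.03 lie farthest from 0.

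Ligands were split, with 1 of 6 measured genes higher, 1 lower and 4 not called. WNT5A, the best known ligand of beta-catenin-independent signalling, was at -0.36, -0.21 and -0.14 log2 in control replicates 1, 2 and 3 and at 0.14, 0.15 and 0.22 in HS3ST2-labelled replicates 1, 2 and 3. All HS3ST2-labelled values thus lay above all control values, and the rise was 0.41 ± 0.07 log2 (SE, limma adjusted p 0.00351), 1.33-fold on this scale. Its probe sets both pointed upward, at 0.50 (called) and 0.33 (not called, limma adjusted p 0.0508). WNT7B, a ligand that can signal through beta-catenin, moved the other way. Control arrays had 0.18, 0.29 and 0.22 log2 and HS3ST2-labelled arrays -0.36, -0.37 and -0.11, with no overlap. WNT7B fell by 0.51 ± 0.08 log2 (SE, limma adjusted p 0.00246), with its probe sets at -0.73 (called) and -0.28 (not called).

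WNT5B, a close relative of WNT5A, was not called over its 3 probe sets (-0.13 ± 0.06 log2, SE, 95% interval -0.27 to 0.01). One of them was called lower on its own, with 0.10, 0.18 and 0.07 log2 in control arrays and -0.22, -0.07 and -0.28 in HS3ST2-labelled arrays (limma adjusted p 0.0349 over all probe sets). This call was lost without any 1 array other than HS3ST2 replicate 2 (limma adjusted p 0.0643 to 0.112), and the other two probe sets gave -0.33 and 0.23. WNT7A (0.02 log2) and WNT10A (0.04) did not pass. WNT11 did not pass either at -0.30 ± 0.13 log2 (SE). Its control values were 0.40, -0.09 and 0.35, so control replicate 2 lay apart, and without that array WNT11 was called (-0.46, limma adjusted p 0.0164). WLS, the carrier that brings Wnt ligands to the cell surface, was 0.13 log2 higher without a call (95% interval -0.01 to 0.26).

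Frizzled receptors went in both directions, with 2 of 8 measured genes higher, 1 lower and 5 not called. FZD5 was at 0.09, 0.25 and 0.19 log2 in control arrays and at -0.21, -0.20 and -0.16 in HS3ST2-labelled arrays. The groups did not overlap, and FZD5 fell by 0.37 ± 0.06 log2 (SE, limma adjusted p 0.00295). That fall came from 1 of its 2 probe sets, at -0.67, which ends in _s_at, the suffix of probe sets that can match several transcripts. The other gave -0.06, so that without _s_at and _x_at probe sets FZD5 was at -0.06 with no call (limma adjusted p 0.627).

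FZD3 had -0.19, -0.11 and -0.05 log2 in control arrays and 0.04, 0.14 and 0.22 in HS3ST2-labelled arrays, a rise of 0.25 ± 0.07 (SE, limma adjusted p 0.0281). Of its 4 probe sets, those at 0.48 and 0.40 were called and those at -0.01 and 0.12 were not, and the one at 0.48 lost its call without any 1 control array or HS3ST2 replicate 2 (0.0515 to 0.0856). FZD2 had -0.03, -0.19 and -0.27 log2 in control arrays and 0.07, 0.03 and 0.10 in HS3ST2-labelled arrays, a rise of 0.23 ± 0.07 (SE, limma adjusted p 0.0479). Both receptors separated the groups by a small gap. The FZD3 call was lost without control replicate 1, control replicate 2, HS3ST2 replicate 2 or HS3ST2 replicate 3 (limma adjusted p 0.0699 to 0.0903), and that of FZD2 without any 1 array other than control replicate 1 (0.0836 to 0.134). FZD2 also lost it with its probe set of largest SD (0.22, limma adjusted p 0.12), and neither of its probe sets was called singly. The other receptors, FZD1 (-0.13 log2), FZD4 (0.04), FZD6 (0.17), FZD7 (-0.04) and FZD9 (-0.02), did not pass.

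LRP6 and ROR1, both co-receptors, had the largest rises of the Wnt genes. LRP5, LRP6 and ROR1 rose, 3 of 4 measured genes, and ROR2 did not pass. LRP6, which pairs with Frizzled to start beta-catenin signalling, was at -0.53, -0.41 and -0.52 log2 in control arrays and at 0.50, 0.43 and 0.70 in HS3ST2-labelled arrays. Its lowest HS3ST2-labelled value stood far above the highest control value. The rise was 1.03 ± 0.08 log2 (SE, limma adjusted p 1.03e-04), 2.04-fold on this scale, which placed LRP6 at rank 173 of 19775 genes by size of difference. All 3 LRP6 probe sets were called, at 0.87, 0.90 and 1.33, and LRP6 was the only one of the 15 called genes with several probe sets in which every probe set was called. Over left-out arrays the rise was 0.95 to 1.09.

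ROR1, a receptor tyrosine kinase that binds WNT5A, was at -0.26, -0.16 and -0.31 log2 in control arrays and at 0.23, 0.26 and 0.31 in HS3ST2-labelled arrays. With no overlap, it rose by 0.51 ± 0.06 log2 (SE, limma adjusted p 5.71e-04), 1.42-fold. Its probe sets disagreed in size, at 1.00 and 0.48 (both called) and 0.04 (not called). ROR2, the other member of this receptor pair, had 1 probe set and was at 0.02, -0.08 and 0.03 log2 in control arrays and at 0.22, -0.18 and -0.02 in HS3ST2-labelled arrays. Those groups overlapped, and the difference was 0.02 ± 0.10 log2 (SE, 95% interval -0.21 to 0.25).

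LRP5, the relative of LRP6, had -0.05, -0.30 and -0.15 log2 in control arrays and 0.14, 0.04 and 0.22 in HS3ST2-labelled arrays. It rose by 0.30 ± 0.08 log2 (SE, limma adjusted p 0.0282), and lost the call without control replicate 2, control replicate 3, HS3ST2 replicate 1 or HS3ST2 replicate 3 (0.0631 to 0.0901). The mean hides a split between its 2 probe sets. One had -0.27, -0.36 and -0.36 log2 in control arrays and 0.27, 0.31 and 0.47 in HS3ST2-labelled arrays, was called at 0.68 (limma adjusted p 0.00114) and kept its call whichever array was left out. The other gave -0.07 with overlapping groups.

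**Figure D2:**
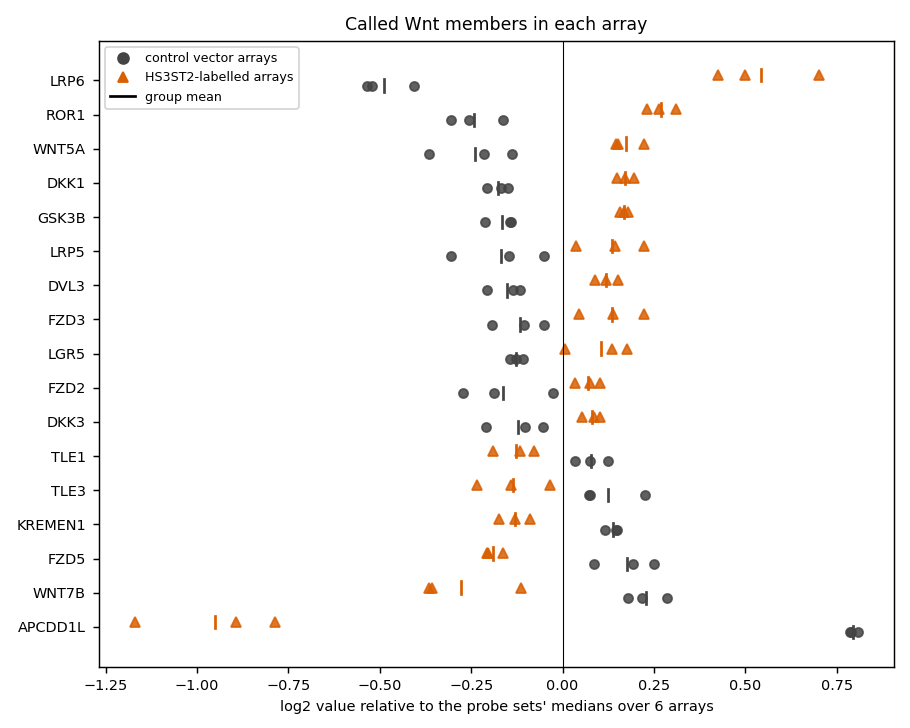
Value of each of the 17 called Wnt genes in the 6 arrays (x axis, log2 relative to the probe sets' medians, averaged over the probe sets of a gene), with control arrays as grey circles, HS3ST2-labelled arrays as orange triangles and short vertical lines for the group means. The groups do not overlap in any of the 17 genes, which were selected by their call on these same arrays, so this separation is no further evidence. Over all genes, called or not, the groups do not overlap in 40.4%. FZD2 shows the smallest gap, from -0.03 to 0.03.

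Promoter sequence was available from RefSeq (GRCh38.p14) for 36 of the 51 genes, as 250 bases before to 50 bases after the annotated start, in 49 windows. Of the 3 co-receptors that rose, LRP5 and ROR1 are shown, since LRP6 has no entry. DKK1 is shown as the only called gene whose window holds a searched form of the TCF/LEF core motif. The forms searched, on both strands, were CTTTGAT and CTTTGTT, which do not overlap each other. Other forms of the core were not searched and are not marked. In capitals is the motif, and the sequences run 5′ to 3′ along the gene's strand, which is the plus strand in each.
LRP5, chr11:68312341-68312640: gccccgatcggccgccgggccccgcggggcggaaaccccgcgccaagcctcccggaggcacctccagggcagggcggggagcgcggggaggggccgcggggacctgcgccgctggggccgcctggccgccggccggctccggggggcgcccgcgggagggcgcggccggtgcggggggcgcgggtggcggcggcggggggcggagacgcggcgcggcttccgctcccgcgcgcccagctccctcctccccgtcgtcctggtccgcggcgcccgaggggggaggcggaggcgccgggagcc
ROR1, chr1:63773767-63774066: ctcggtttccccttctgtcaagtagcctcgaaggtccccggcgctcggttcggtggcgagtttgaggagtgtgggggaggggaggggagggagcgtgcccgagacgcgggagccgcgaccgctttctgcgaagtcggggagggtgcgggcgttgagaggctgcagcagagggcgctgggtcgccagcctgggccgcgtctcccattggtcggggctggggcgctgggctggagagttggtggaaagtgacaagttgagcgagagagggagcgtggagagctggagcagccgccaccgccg
DKK1, chr10:52314031-52314330: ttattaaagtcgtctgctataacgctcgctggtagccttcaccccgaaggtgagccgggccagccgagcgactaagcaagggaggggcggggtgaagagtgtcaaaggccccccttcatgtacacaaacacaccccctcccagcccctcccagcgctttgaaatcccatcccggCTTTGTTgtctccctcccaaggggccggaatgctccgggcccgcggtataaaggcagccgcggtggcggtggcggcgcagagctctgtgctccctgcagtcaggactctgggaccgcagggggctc

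The LRP5 window was 86.7% G or C with 52 CpG pairs, the ROR1 window 69% with 29 and the DKK1 window 63.7% with 20. All 35116 promoters of the table had a median of 58.7% and 14 pairs, and the 49 windows of the Wnt genes 66.3% and 25. DKK1 holds CTTTGTT on its own strand, with the first base 76 before the start. Of the 49 windows, 4 (8.16%) held either motif, against 7.61% of all promoters. The other three were in TCF7L2, which was not called, and in TCF7 and WNT3, which were not measured. Among called genes 1 of 9 with a promoter held a motif, and among measured genes that were not called 1 of 23. A match describes these letters only, and binding was not measured.

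Inhibitors that act outside the cell or at its membrane included the largest change of all the Wnt genes. Among 7 of them 2 were higher, 2 were lower and 3 were not called. APCDD1L, a relative of the Wnt inhibitor APCDD1, was at 0.79, 0.79 and 0.81 log2 in control arrays and at -1.17, -0.79 and -0.89 in HS3ST2-labelled arrays. Control arrays lay close together and far above every HS3ST2-labelled array. It fell by 1.75 ± 0.09 log2 (SE, limma adjusted p 1.91e-05), a 3.35-fold difference on this scale and rank 36 of 19775 genes by size. APCDD1L rests on 1 probe set, and over left-out arrays the difference was -1.83 to -1.64. APCDD1 itself, on 2 probe sets, was at -0.02, -0.04 and 0.04 log2 in control arrays and at -0.04, -0.05 and 0.19 in HS3ST2-labelled arrays, a difference of 0.04 ± 0.08 (SE, 95% interval -0.13 to 0.21).

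DKK1, a secreted protein that blocks LRP5 and LRP6 and is itself a known target of TCF, was at -0.15, -0.17 and -0.21 log2 in control arrays and at 0.15, 0.20 and 0.17 in HS3ST2-labelled arrays. It rose by 0.35 ± 0.05 log2 (SE, limma adjusted p 0.00167), with a spread of 0.03 and 0.02 (SD, n = 3) within the groups. KREMEN1, the receptor through which DKK1 removes LRP6 from the surface, went the other way. Its values were 0.12, 0.15 and 0.15 log2 in control arrays and -0.13, -0.09 and -0.17 in HS3ST2-labelled arrays, and it fell by 0.27 ± 0.05 (SE, limma adjusted p 0.0065). That mean covers 5 probe sets, of which those at -0.94 and -0.38 were called lower and those at -0.07, -0.03 and 0.08 were not. The call at -0.38 was lost without control replicate 2 or 3 or HS3ST2 replicate 2 or 3 (limma adjusted p 0.0587 to 0.0626). Taking for KREMEN1 only the probe set that varied most, instead of the mean, gave -0.94.

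DKK3, a relative of DKK1 that is often silenced in tumours, had -0.05, -0.21 and -0.10 log2 in control arrays and 0.10, 0.05 and 0.09 in HS3ST2-labelled arrays, a rise of 0.20 ± 0.06 (SE, limma adjusted p 0.0376). Of its 6 probe sets 1 was called, at 0.60, and the others ran from -0.14 to 0.28. The DKK3 call was lost without any 1 array other than control replicate 1 (0.0733 to 0.114), and without _s_at and _x_at probe sets DKK3 was at 0.05 (0.695). The secreted Frizzled-related proteins SFRP1 (0.04 ± 0.05 log2, SE, 95% interval -0.09 to 0.16) and FRZB (-0.03 ± 0.05, interval -0.15 to 0.09) did not pass, and none of their 4 probe sets each was called.

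Genes that set the number of receptors at the surface showed 1 rise among 4. LGR5, a receptor for R-spondins and a stem cell marker of the gut, was at -0.14, -0.13 and -0.11 log2 in control arrays and at 0.01, 0.13 and 0.18 in HS3ST2-labelled arrays. It rose by 0.23 ± 0.06 log2 (SE, limma adjusted p 0.0246), but neither of its 2 probe sets was called singly (0.22 and 0.25). The LGR5 call was lost without any 1 array other than HS3ST2 replicate 1 (0.0563 to 0.0832) and with its probe set of largest SD (0.154). RNF43, a ubiquitin ligase that removes Frizzled receptors, was at 0.02, 0.29 and 0.23 log2 in control arrays and at -0.22, -0.04 and -0.02 in HS3ST2-labelled arrays, and its difference of -0.27 ± 0.09 (SE, limma adjusted p 0.0607) did not pass. RNF43 was called without control replicate 1 (-0.35, limma adjusted p 0.0209) and with array weights (-0.30, 0.0346). LGR4, another R-spondin receptor, did not pass at -0.19 ± 0.07 log2 (SE, limma adjusted p 0.0791), but did without HS3ST2 replicate 1 (-0.26, 0.0236). ZNRF3, the partner of RNF43, was at -0.04 with a 95% interval of -0.21 to 0.12.

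Of the Dishevelled proteins, which pass the signal on from Frizzled, DVL3 rose and the other 2 did not pass. DVL3 was at -0.13, -0.21 and -0.12 log2 in control arrays and at 0.15, 0.12 and 0.09 in HS3ST2-labelled arrays, without overlap. It rose by 0.27 ± 0.05 log2 (SE, limma adjusted p 0.00709), with 1 probe set at 0.51 (called) and the other, of the _x_at kind, at 0.03 (not called). DVL1 stood at 0.15 (95% interval 0.03 to 0.27, limma adjusted p 0.0819) and DVL2 at -0.10 (interval -0.23 to 0.02). Their inhibitors NKD1 (0.07 log2) and NKD2 (0.04), which TCF factors can induce, did not pass.

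In the complex that marks beta-catenin for destruction, GSK3B was the 1 called gene of 6. This kinase was at -0.14, -0.21 and -0.14 log2 in control arrays and at 0.16, 0.18 and 0.17 in HS3ST2-labelled arrays, a rise of 0.33 ± 0.05 (SE, limma adjusted p 0.00219). Of its 5 probe sets, those at 0.70, 0.45 and 0.41 were called and those at 0.11 and 0.004 were not, and the one at 0.41 lost its call without any 1 array other than HS3ST2 replicate 3 (0.0579 to 0.138). GSK3A, the related kinase, was at -0.03 ± 0.05 log2 (SE, 95% interval -0.15 to 0.09). AXIN1, the scaffold of the complex, was at 0.03, 0.18 and 0.27 log2 in control arrays and at -0.05, -0.03 and -0.10 in HS3ST2-labelled arrays, and its difference of -0.22 ± 0.07 (SE, limma adjusted p 0.0563) did not pass. AXIN1 was called without control replicate 1 (-0.29, limma adjusted p 0.0168) and with array weights (-0.24, 0.031). AXIN2, a scaffold that is also a widely used target of beta-catenin, was at -0.04, 0.10 and 0.06 log2 in control arrays and at -0.05, -0.04 and -0.08 in HS3ST2-labelled arrays. The AXIN2 groups overlapped, its difference was -0.09 ± 0.06 (SE, 95% interval -0.22 to 0.04), and its 4 probe sets lay between -0.19 and 0.01 with no call.

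APC and the kinase CSNK1A1 were not called over their 5 and 13 probe sets, at -0.05 ± 0.05 and 0.03 ± 0.07 log2 (SE). Each had 1 probe set called higher. The one of APC was at -0.15, -0.06 and -0.14 log2 in control arrays and at 0.06, 0.17 and 0.14 in HS3ST2-labelled arrays (difference 0.24, limma adjusted p 0.0426 over all probe sets). Its call was lost whichever array was left out (0.061 to 0.129). The one of CSNK1A1 was at -0.19, -0.13 and -0.18 log2 in control arrays and at 0.13, 0.21 and 0.16 in HS3ST2-labelled arrays (difference 0.33, limma adjusted p 0.00963), and it kept its call whichever array was left out. Other probe sets of CSNK1A1 went down to -0.37 and those of APC to -0.33.

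**Figure D3:**
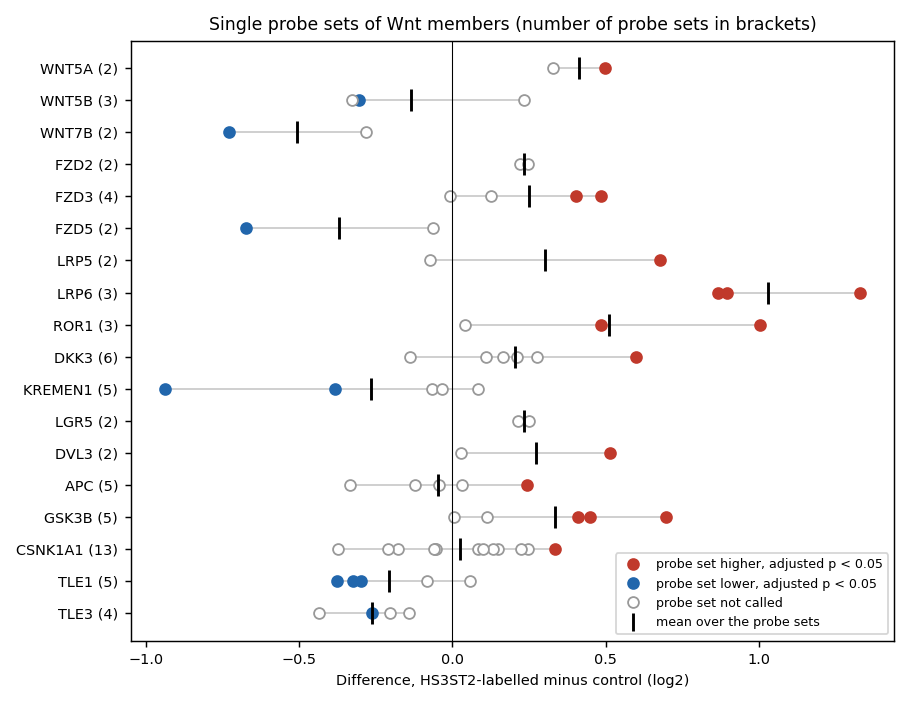
Difference between HS3ST2-labelled and control arrays (log2, x axis) of each probe set (circle) for the 18 Wnt genes with several probe sets and a call on the gene or on a probe set. Red and blue circles were called higher and lower at a limma adjusted p under 0.05 over all probe sets, open circles were not called, and black bars mark the mean used for the gene. In LRP6 all 3 probe sets were called, whereas in LRP5, FZD5, ROR1 and DVL3 a probe set near 0 stands beside a called one.

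Probe sets of a gene often disagreed in this way. Of the 15 called genes with several probe sets, 13 had at least 1 probe set called in the same direction and 1 had all of them called. In 0 genes were probe sets called in opposite directions. Whether a probe set near 0 measures another transcript end or lies at background cannot be told apart here, since levels were removed before deposit.

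The measured TCF and LEF factors were not called, and the TLE family went in both directions. Of its 3 genes in the set, TLE1 and TLE3 fell, while TLE2 and TLE5, which stand in the list of other pathway genes, rose by 0.39 and 0.43 log2 (limma adjusted p 0.00434 and 0.00253). Both were named after their values were seen. TLE5 rests on 1 probe set and was not measured without _s_at and _x_at probe sets. TLE1, which TCF factors recruit when beta-catenin is absent, was at 0.03, 0.08 and 0.12 log2 in control arrays and at -0.08, -0.12 and -0.19 in HS3ST2-labelled arrays. It fell by 0.21 ± 0.06 log2 (SE, limma adjusted p 0.0303), and 3 of its 5 probe sets were called, from -0.38 to -0.30, of which the one at -0.38 kept its call whichever array was left out. TLE3 was at 0.07, 0.07 and 0.23 log2 in control arrays and at -0.23, -0.14 and -0.03 in HS3ST2-labelled arrays, and fell by 0.26 ± 0.07 (SE, limma adjusted p 0.0324), with 1 of 4 probe sets called (-0.26, lost whichever array was left out, 0.0524 to 0.105) and all of them below 0. Neither of these falls was firm. TLE1 lost it without control replicate 2, control replicate 3, HS3ST2 replicate 2 or HS3ST2 replicate 3 (0.0718 to 0.1), and TLE3 without any 1 array other than HS3ST2 replicate 3 (0.0511 to 0.1) and with its probe set of largest SD (-0.43, 0.0867). TLE4 did not pass (0.06 ± 0.05 log2, SE).

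TCF7L2, the main TCF factor of many epithelial cells, was at -0.07, 0.00 and -0.04 log2 in control arrays and at -0.02, 0.03 and 0.02 in HS3ST2-labelled arrays, with 7 probe sets and no call among them. LEF1 was at -0.02 ± 0.06 log2 (SE, 95% interval -0.15 to 0.12) over 3 probe sets. TCF7L1, which mostly represses, had 1 probe set, and HS3ST2 replicate 1 stood apart at -0.60 from the other two at 0.05 and 0.05, while control arrays were at -0.05, -0.14 and 0.05, so the groups overlapped. The difference of TCF7L1 was -0.12 ± 0.17 log2 (SE, 95% interval -0.50 to 0.27).

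Over the 30 Wnt genes that did not pass, differences ran from -0.30 to 0.17 log2. In 23 of them the 95% interval lay within 0.3 log2 of 0 on both sides, with -0.61 (WNT11) the lowest bound of all 30 and 0.33 (FZD6) the highest. The groups did not overlap in 8 of the 30, for which no share over all uncalled genes was computed. Of all 47 Wnt genes, called or not, they did not overlap in 25, against 40.4% of all genes, called or not.

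A list of 71 other genes of the pathway was followed in the same fit, and 69 were measured. Of these 9 rose, 7 fell and 53 did not pass, so 23.2% were called, close to the 24.5% of all genes, and the median difference was -0.01 log2. The 6 with the smallest p were CELSR2, a cadherin of planar cell polarity (0.60 ± 0.05 log2, SE, higher), SIAH1, a ubiquitin ligase that can target beta-catenin (0.56 ± 0.05, higher), FRAT1, which binds GSK3 and keeps it from beta-catenin (0.66 ± 0.07, higher), CXXC4, an inhibitor that binds Dishevelled (0.54 ± 0.06, higher), PRICKLE2, a planar polarity protein (-0.62 ± 0.08, lower) and NLK, a kinase that acts on TCF factors (-0.42 ± 0.06, lower). By limma their adjusted p was 0.00129 or less. RSPO3, an R-spondin chosen after its value was seen, had the lowest difference of the list (-0.91 ± 0.19 log2, SE, limma adjusted p 0.0107). Its control values were spread, at 0.15, 0.95 and 0.46 log2, with -0.56, -0.46 and -0.15 in HS3ST2-labelled arrays. RSPO3 rests on 1 probe set and was not measured without _s_at and _x_at probe sets. SIAH1 was not called without _s_at and _x_at probe sets (0.35, limma adjusted p 0.111). CTNNB1, which encodes beta-catenin, was at 0.03, -0.18 and -0.12 log2 in control arrays and at 0.15, 0.06 and 0.07 in HS3ST2-labelled arrays. Its difference of 0.18 ± 0.07 (SE, limma adjusted p 0.0864) did not pass, although it did without control replicate 1 (0.24, 0.0319).

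Genes known as targets of beta-catenin and TCF were called lower more often than higher with all probe sets in use. Of 47 listed, 43 were measured, 10 fell, 5 rose and 28 did not pass (34.9% called, against 24.5% of all genes), with a median of -0.09 log2. Of all genes, 13.0% were called lower and 11.5% higher. Among the 8 measured targets that are also in the Wnt gene set, 2 rose (DKK1 and LGR5) and 6 did not pass, namely AXIN2, NKD1, LEF1, RNF43, ZNRF3 and APCDD1. All 10 falls were in the other 35, which also held 3 rises. The 6 smallest p belonged to BIRC5, which encodes survivin and is expressed in dividing cells (-0.97 ± 0.06 log2, SE, lower), ID2, an inhibitor of differentiation (-1.16 ± 0.07, lower), L1CAM, an adhesion molecule (-0.93 ± 0.06, lower), MYC, a growth transcription factor (-0.66 ± 0.05, lower), CD44, the hyaluronan receptor (-0.59 ± 0.05, lower) and SOX4, a transcription factor (0.80 ± 0.08, higher), all at a limma adjusted p of 3.73e-04 or less. These genes are also controlled by other pathways. CCND1, which encodes cyclin D1, was at -0.02 ± 0.08 log2 (SE, 95% interval -0.22 to 0.17). Without _s_at and _x_at probe sets 35 targets were measured, of which 3 rose and 4 fell. In that fit 3328 of all 17098 genes were called, 1667 higher and 1661 lower. BMP4, ID2, MYC, NRCAM and SOX9, all called lower with all probe sets in use, were not measured in that fit. CCN1, a fall, and FN1 and TIAM1, both rises, were measured there and lost their calls. The smaller number of falls thus came mostly from targets that were no longer measured. Without control replicate 1, 2 or 3 or HS3ST2 replicate 3, 3 targets rose, and 10, 9, 10 and 10 fell. Without HS3ST2 replicate 1 or 2, 4 targets rose, and 10 and 8 fell. Over these 6 fits, 1729 to 1899 of all genes were called higher and 2025 to 2162 lower.

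**Figure D4:**
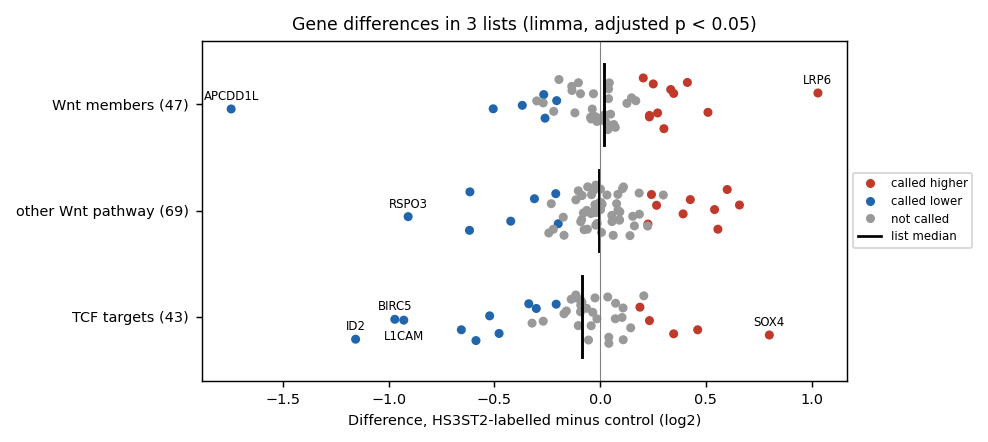
Differences between HS3ST2-labelled and control arrays (log2, x axis) of the measured Wnt genes (47), the other genes of the pathway (69) and the TCF targets (43), 1 point a gene, red where called higher, blue where called lower and grey where not called, with black lines at the list medians. Medians are 0.02, -0.01 and -0.09 log2, points are spread vertically only to be seen, and 8 genes stand in both the first and the third list.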

How the data were processed

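Total RNA of 6 samples was measured on Affymetrix arrays, 3 per group. The authors deposited 1 table of log2 values, for which the submitters' processing notes name RMA, and its base was taken as 2. In it the median of the 6 values of every probe set is 0 within 4.8e-07, a centring for which the labels name no software. The deposited log2 values therefore keep differences between arrays and not levels, so the planned filter on dim probe sets could not be run. Arrays give no counts, and their number limits the precision.

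Of 54675 probe sets, 62 Affymetrix controls were left out. GEO's platform annotation gave 1 symbol for 41091, several for 1801 and none for 11721; of the first, 41037 matched a current gene record. Probe sets with 1 symbol were averaged per gene. limma 3.58.1 (lmFit and eBayes, R 4.3.3, no covariate) compared the groups over 19775 genes and over 54613 probe sets, with Benjamini-Hochberg adjustment over all of them and a threshold of 0.05. The fits were tested on simulated data. Differences are HS3ST2-labelled minus control.

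The Wnt genes, roles, lists and tests were chosen with earlier results of these data known. Every measured Wnt gene is named. Array values are given for called genes, for genes with only a called probe set and for others singled out after their values were seen; from each other list the 6 called genes of smallest p are named, and CTNNB1, MYC and CCND1. The alternatives were a replicate block, each array left out, quantile normalization, array median centring, array weights, robust eBayes, the probe set of largest SD, no _x_at or _s_at probe sets, and other thresholds. The labels do not say whether equal replicate numbers mark paired samples. Deviations of arrays with equal numbers correlated at 0.12, 0.05 and -0.08 over genes, and those with unequal numbers at -0.168 to 0.144. With 3 arrays a group these values cannot settle whether samples were paired.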

Additional observations from a re-analysis of the deposited data

How the results depend on the processing

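Of the 17 called Wnt genes, all kept their call and direction with quantile normalization, array median centring, array weights and robust eBayes, and 14 kept the call with the probe set of largest SD and 14 without _x_at and _s_at probe sets. Direction was compared for the measured Wnt genes, the 6 genes of smallest p from each other list, CTNNB1, MYC and CCND1. Under none of the alternatives in which it was measured did a called gene among these change direction. Other called genes named in the text, such as TLE2, TLE5 and RSPO3, were not compared. With the replicate number as a replicate block, 15 Wnt genes were called, 9 higher and 6 lower, 14 of them shared; DKK3, FZD2 and TLE1 lost the call and RNF43 gained it. The block also called 16 other pathway genes, 15 targets, 24 Wnt probe sets, 4302 of all genes and 7705 of all probe sets. Whether samples of the same number share more than the number is not known. At an adjusted p under 0.01, 10 Wnt genes were called (6 higher, 4 lower). Also called were 11 other pathway genes (7 higher, 4 lower) and 11 targets (3 higher, 8 lower). Of all genes, 2840 were called at that threshold, 1285 higher and 1555 lower. With an absolute difference of at least 0.5 log2, 4 Wnt genes remained (2 higher, 2 lower), 7 other pathway genes (4 and 3), 7 targets (1 and 6) and 1157 of all genes (542 and 615); both settings are stricter by construction. Over left-out arrays, the called Wnt genes numbered 11 to 16, of which 6 to 9 were higher. In these fits 3777 to 4020 of all 19775 genes were called, against 4845 with all arrays. The Wnt probe sets called lower numbered 6 to 9, against 10 with all arrays (6 without HS3ST2 replicate 3). Of all 54613 probe sets, 3285 to 3775 were called lower, against 4905 with all arrays (3431 without HS3ST2 replicate 3). Targets called higher numbered 3 to 4, against 5 with all arrays, and those called lower 8 to 10, against 10. Fewer samples enter these fits. Targets called higher also numbered 3 with the probe set of largest SD, where LGR5 and TIAM1 lost their calls, and 10 were called lower. Of all genes, 2456 were called higher and 2742 lower with that probe set. Why these calls were lost was not tested. Without _x_at and _s_at probe sets, which leaves 17098 genes, 7 of 35 targets were called (3 higher, 4 lower). Of all genes 3328 were called there, 1661 of them lower. BMP4, ID2, MYC, NRCAM and SOX9 were not measured in that fit. The dim-probe filter was not run. Scaling moved the median of all genes from 0.009 to at most 0.01 log2.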
